A study of Mus musculus with 3 samples.

Results

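The apolipoprotein genes encode the protein part of plasma lipoproteins, and their mRNA levels were compared in mouse livers that expressed human YAP. The set was 10 listed genes: Apoa1, Apoa2, Apoa4, Apoa5, Apob, Apoc1, Apoc2, Apoc3, Apoe and Apoh. A gene was matched to its array probes through the RefSeq accession of the probe. This found 11 probes, on 29 spots of each array, for 9 of the 10 genes, out of 55681 probes and 20284 named genes in all. No accession of Apoc2, whose protein is the cofactor of lipoprotein lipase, matched a probe here, so Apoc2 was not analysed. All 11 probes were well above background on all 3 arrays.

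The samples were 3 livers of C57BL/6J mice, with 1 array each, collected 2 days after plasmid was forced into the liver by hydrodynamic tail vein injection. The plasmid of the first encoded wild-type YAP (WT), and those of the others encoded the active mutants YAP (1SA) and YAP (2SA), which escape inhibition by the Hippo pathway. Per the study's methods the mice were adult males, and an albumin promoter with an AFP enhancer drove the transgene in hepatocytes, of which a minority take up plasmid. All 3 livers had thus been injected and carried a YAP plasmid, and no array of an uninjected liver was used here. Whether animals were pooled for an array is not given in the labels. With 1 array per group there is no spread between animals and no test, so each difference below is a difference between 2 liver samples. In a bulk sample, fewer cells of a type and less RNA per cell cannot be told apart.

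Apolipoproteins give lipoprotein particles their structure, act as cofactors or inhibitors of the enzymes that break down their lipids, and are the ligands by which liver receptors take the particles up. The liver is their main source, together with the intestine, and hepatocytes secrete them on very low density lipoprotein (VLDL) and high density lipoprotein (HDL). Apoa1, Apoc3, Apoa4 and Apoa5 lie next to each other on chromosome 9, and Apoe, Apoc1 and Apoc2 lie together on chromosome 7. The genes are active in hepatocytes under factors such as HNF4 alpha.

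The values of Apoa1, Apoa4 and Apoa5 departed most from those of the other members, so the 250 bases upstream of each annotated start are shown for these neighbours on chromosome 9. They come from RefSeq on build GRCm38.p6, plus strand, at chr9:46228380-46228629 for Apoa1, chr9:46240594-46240843 for Apoa4 and chr9:46268358-46268607 for Apoa5. Apoa5 has a pair of annotated starts, and the upstream one was used. Capitals mark letters that matched a searched motif on either strand.
Apoa1: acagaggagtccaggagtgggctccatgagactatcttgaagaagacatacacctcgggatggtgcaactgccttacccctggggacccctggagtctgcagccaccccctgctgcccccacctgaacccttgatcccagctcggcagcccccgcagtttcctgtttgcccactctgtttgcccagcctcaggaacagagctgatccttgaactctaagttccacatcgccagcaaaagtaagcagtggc
Apoa4: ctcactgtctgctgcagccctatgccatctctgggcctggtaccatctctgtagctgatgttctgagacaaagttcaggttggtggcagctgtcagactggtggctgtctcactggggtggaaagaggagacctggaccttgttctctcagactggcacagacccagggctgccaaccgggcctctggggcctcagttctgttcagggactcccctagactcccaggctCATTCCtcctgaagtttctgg
Apoa5: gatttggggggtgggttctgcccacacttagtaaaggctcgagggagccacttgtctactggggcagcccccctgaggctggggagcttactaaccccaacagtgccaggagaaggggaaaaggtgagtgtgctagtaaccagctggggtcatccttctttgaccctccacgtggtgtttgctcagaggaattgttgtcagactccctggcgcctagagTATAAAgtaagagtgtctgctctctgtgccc
The 5 motifs searched were TATAAA (the TATA box), AGGTCA (a nuclear receptor core), AAAGTCC (core of an HNF4 site), TGTTTAC (FOXA) and GGAATG (TEAD, the partner of YAP), each also as its reverse complement. In Apoa5 a TATAAA lay 31 to 26 bases before the start. In Apoa4 the reverse complement of GGAATG lay 21 to 16 bases before the start. None of the 5 matched in this window of Apoa1. Of all 32851 promoters in the table, 12.4% held TATAAA, 14% AGGTCA, 3.58% AAAGTCC, 3.17% TGTTTAC and 12.6% GGAATG. The table held 12 promoters for 8 of the 10 genes. Among these 12, TATAAA matched in 5, AGGTCA in 3, AAAGTCC in 1, TGTTTAC in 2 and GGAATG in 2. The TATAAA matches fell in 4 genes, because the overlapping windows of Apoa5 hold the same site. Within a promoter, the only matches that overlapped were TATAAA and its reverse complement, in an Apoe promoter.

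The first question was how far the apolipoprotein genes differed from WT in each mutant. An intensity is the brightness of a spot, linear and with its background already taken off. Each was divided by its array's 75th percentile, a value of 290.8 in the WT, 275.7 in the 1SA and 319.5 in the 2SA liver. A normalised level is the log2 of that ratio, and a difference is a difference of 2 such levels. A member was counted as changed when it differed by at least 1.5-fold. A gene with more than 1 probe was counted by its brightest one. In 1SA, 1 of the 9 genes was lower than in WT by that measure, Apoa5, and none was higher. Over all 27858 measured probes, 4% were lower and 3.31% higher. At 2-fold none of the 9 was lower in 1SA, against 0.958% of all probes. In 2SA, none of the 9 was lower or higher than in WT, against 3.53% and 3.37% of all probes. Between the mutants, none of the 9 was higher or lower in 2SA than in 1SA, against 5.58% and 5.14% of all probes. Of the 9 genes, 7 lie among the brightest 5% of measured probes, which passed this threshold less often than all probes, and Apoa4 and Apoa5 are dimmer and lie outside that class. Among the brightest 5% of measured probes, 1.29% passed it in either direction in 1SA against WT, 1.51% in 2SA against WT and 2.94% in 2SA against 1SA.

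**Figure D1:**
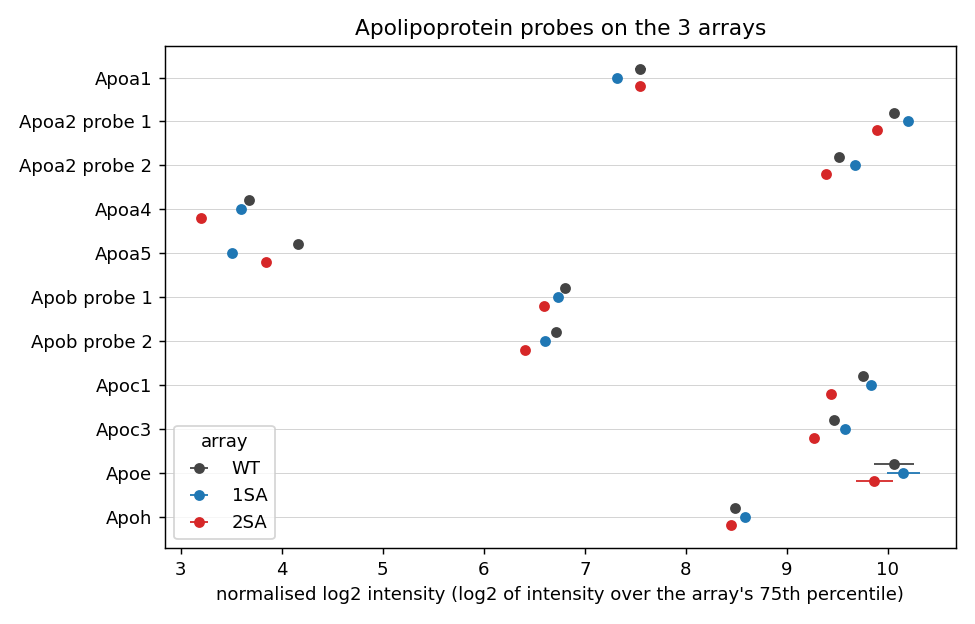
Normalised log2 intensity (x axis) of the 11 apolipoprotein probes (y axis) on the WT, 1SA and 2SA arrays, 1 point per array; bars on Apoa1 and Apoe are the SD over repeated spots, and the other probes had 1 spot. Apoa5 is lowest in 1SA, Apoa4 is lowest in 2SA, and the positions of different probes along the axis are not comparable as expression.

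Repeated spots gave the error of a measurement within an array. Spots of the same probe had a median SD of 0.07 on the log2 scale. A difference between 2 such spots at unlike places would then have an SD of 0.10. Probes stand at the same place on each array, and same-place differences of Apoa1 and Apoe had smaller SDs, of 0.02 to 0.04. Of the 9 genes, 7 lay within 0.21, which is 2 such SDs, of WT in 1SA and 6 in 2SA. For 2SA against 1SA this was so for 2 of the 9. In the same order, the median absolute difference was 0.15, 0.14 and 0.19 over all probes. Over the brightest 5% it was 0.11, 0.08 and 0.15, so most probes also lay within 0.21. The 0.10 includes differences between places, so lying within 0.21 does not show that a gene was unchanged. This error does not cover the spread between animals.

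Apob encodes the large protein around which VLDL is built, and 1 molecule stays on each particle. Its brighter probe (NM_009693) read 32456 in the WT liver, 29354 in the 1SA liver and 30985 in the 2SA liver, and its dimmer probe 30638, 26948 and 27165. Both probes were highest on WT. For the brighter probe 1SA minus WT was -0.07 and 2SA minus WT was -0.20, and for the dimmer one these were -0.11 and -0.31. Both probes thus lay below WT in both mutants, by less than 1.5-fold. Under quantile normalisation the brighter probe was equal in both mutants, with a difference of 0 between them and -0.15 from WT in each.

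Apoa1 encodes the main protein of HDL and activates LCAT, the enzyme that esterifies HDL cholesterol. Its probe (NM_009692) stood on 10 spots of each array. On WT the spots lay between 51296 and 57053 with a median of 55229, on 1SA between 42589 and 45786 with a median of 44283, and on 2SA between 57136 and 62170 with a median of 60385. These ranges, which are not yet scaled, did not overlap. After scaling, each spot was compared with the spot at the same place on the other array. Apoa1 was lower in 1SA than in WT at 10 of 10 spots, by -0.23 ± 0.03 (SD, n = 10 spots), and this held under every alternative run, from -0.32 to -0.19. Some alternatives could not move a gene with a single probe by construction, as given at the end. In 2SA Apoa1 differed from WT by 0.0005, with 5 spots above and 5 below. These spots share 1 RNA sample per array, so they do not stand for animals.

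Apoa2 encodes the other abundant HDL protein. Its brighter probe (NM_013474) read 310185 in the WT liver, 324760 in the 1SA liver and 303764 in the 2SA liver, and its other probe 213000, 226199 and 213563. For the brighter probe 1SA minus WT was 0.14 and 2SA minus WT was -0.17, and for the other these were 0.16 and -0.13. After scaling, both probes were highest in 1SA and lowest in 2SA. The mRNA signals of Apoa1 and Apoa2 thus lay on opposite sides of WT in 1SA. Both Apoa2 probes lay within the 0.21 given above there, and the brighter one was at 0.05 under quantile normalisation. The 2SA difference of the brighter probe turned to 0.02 under quantile normalisation.

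Apoa4 encodes a protein of HDL and of intestinal particles, whose hepatic mRNA is known to rise with fasting and fat load. Its single probe (NM_007468) read 3708 in the WT liver, 3337 in the 1SA liver and 2936 in the 2SA liver. It differed from WT by -0.07 in 1SA and by -0.47 in 2SA, which is 0.72 times the WT level and short of 1.5-fold. The 2SA value was the lowest among the 9 genes, and it lay between -0.47 and -0.41 under all alternatives run.

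Apoa5 encodes a scarce plasma protein that promotes the breakdown of triglyceride by lipoprotein lipase. Its single probe (NM_080434) read 5218 in the WT liver, 3135 in the 1SA liver and 4579 in the 2SA liver. WT was highest, 1SA lowest and 2SA between them. The difference from WT was -0.66 in 1SA, or 0.63 times the WT level, and -0.32 in 2SA, or 0.80 times. It was the member that passed 1.5-fold. Under the alternatives the 1SA difference lay between -0.68 and -0.62 and the 2SA difference between -0.32 and -0.30. Apoa5 was 0.33 higher in 2SA than in 1SA. The value comes from 1 spot per array.

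**Figure D2:**
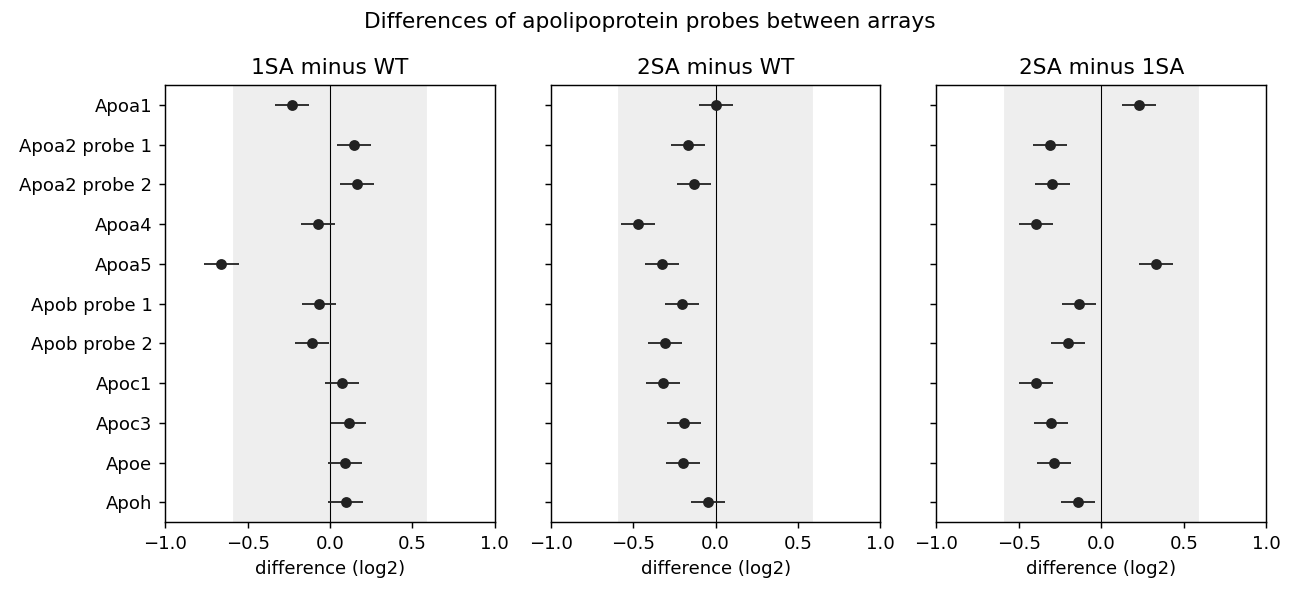
Differences in normalised log2 intensity (x axis) of the 11 apolipoprotein probes (y axis) for 1SA minus WT, 2SA minus WT and 2SA minus 1SA; bars reach 0.10 to either side, the repeated-spot SD of a difference, and the grey band marks differences under 1.5-fold. Apoa5 in 1SA against WT, at -0.66, is the only probe outside the band.

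Apoc1 and Apoc3 encode small exchangeable proteins that restrain lipoprotein lipase and the uptake of particles by the liver. The Apoc1 probe (NM_007469) read 251979 in the WT liver, 251629 in the 1SA liver and 221842 in the 2SA liver, and differed from WT by 0.07 and -0.32. The Apoc3 probe (NM_023114) had 205258, 210393 and 197677, and differed by 0.11 and -0.19. For both genes 2SA was the lowest array. Apoc1 was 0.39 and Apoc3 0.30 lower in 2SA than in 1SA, as differences of -0.39 and -0.30. Quantile normalisation brought these to -0.13 and -0.10. It also turned the Apoc1 difference of 1SA from WT to -0.05.

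Apoe encodes the ligand by which liver receptors clear remnant particles, and macrophages make it as well as hepatocytes. Its probe (NM_009696) stood on 10 spots, of which 1 was marked as an outlier on the 1SA array and left out there. On WT the spots lay between 252473 and 362691 with a median of 329403, on 1SA between 254035 and 353608 with a median of 323024, and on 2SA between 248124 and 347368 with a median of 313132. These ranges overlapped. Spot by spot, at the 9 places kept on all arrays, Apoe was 0.06 ± 0.02 (SD, n = 9 spots) higher in 1SA than in WT and differed by -0.20 ± 0.03 in 2SA, with all 9 spots on the same side in each case. The probe mean, which includes the place missing on 1SA, gave 0.09 and -0.20. Before scaling, the median spot was lower in 1SA than in WT, so the side of WT on which the 1SA spots lie rests on the scaling. Under quantile normalisation the 1SA difference was 0.002 and the 2SA difference -0.02.

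The repeated spots of Apoe behaved unlike those of Apoa1 in how the processing changed their spread. Before the correction of trends, Apoe spots on WT had an SD of 0.02 on the log2 scale and a highest to lowest ratio of 1.05. In the deposited processed signal the SD was 0.20 and the ratio 1.44. For Apoa1 on WT the processing took the SD from 0.10 to 0.05. On WT, the 16 probes with 10 spots and an intensity from 10000 to 100000 had a median SD of 0.17 before and 0.05 after, and for none of them did the processing widen it. Of the 5 such probes above 100000, Apoe among them, it was wider after processing for 3 in the WT, 2 in the 1SA and 3 in the 2SA array. Saturation was marked for none of the spots. On the WT array 4 measured probes were brighter than Apoe, 5 brighter than the brighter Apoa2 probe, 21 brighter than Apoc1 and 39 brighter than Apoc3. Whether probes this bright follow the amount of RNA in proportion was not tested. The differences of Apoe taken place by place had SDs of only 0.02 to 0.04.

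**Figure D3:**
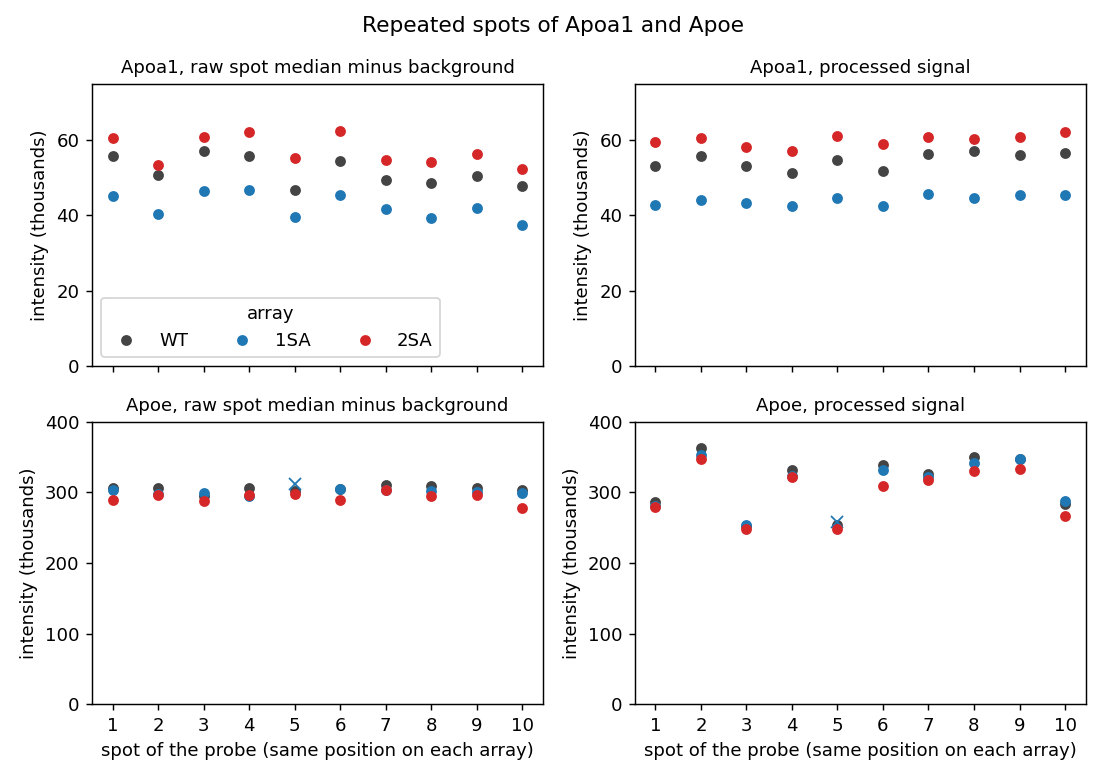
Intensity (y axis, in units of 1000, from 0) of the 10 spots of the Apoa1 probe and the Apoe probe (x axis, same place on each array) on the WT, 1SA and 2SA arrays, before and after the scanner software's correction of trends; the cross is the spot left out on 1SA. Intensities are not scaled between arrays. Apoa1 spots separate by array after the correction, and those of 1SA lie below the others before it too. After scaling, Apoa1 on 2SA differs from WT by 0.0005, with 5 spots above and 5 below. Apoe spots are even before the correction (295286 to 310777 on WT) and spread after it (252473 to 362691).

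Apoh encodes beta-2-glycoprotein I, a plasma protein that binds anionic phospholipids and is found partly on lipoproteins. Its probe (NM_013475) read 104434 in the WT liver, 105701 in the 1SA liver and 111191 in the 2SA liver. The 1SA minus WT value was 0.09 and the 2SA minus WT value -0.05, both within the 0.21 given above. The 2SA difference turned to 0.02 under quantile normalisation.

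Across the 9 genes, the median difference was 0.07 in 1SA against WT, with 5 genes above and 4 below. It was -0.20 in 2SA against WT, with 1 above and 8 below, and -0.29 in 2SA against 1SA, with 2 above and 7 below. Both comparisons with WT share the WT array. Over all 27858 measured probes the medians were 0.02, -0.03 and -0.05. The brightest 5% of probes had medians of 0.09, -0.05 and -0.14. These depended on the scaling. Under quantile normalisation, which gives the arrays the same distribution, the medians of the 9 genes were -0.05, -0.08 and -0.02, and those of the same bright probes were -0.003, -0.007 and 0. The differences of Apoa5 in 1SA, of Apoa4 in 2SA and of Apoa1 in 1SA kept their sign there, as given above, while those of Apoa2 and Apoh in 2SA and of Apoc1 in 1SA turned.

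Markers of cell types were set beside these values. The 8 hepatocyte markers, which include Alb and Ttr, were all measured. They had a median of 0.15 in 1SA, with 8 of 8 above WT, and -0.11 in 2SA, with 6 of 8 below. Between the mutants they had a median of -0.23 in 2SA against 1SA, with 8 of 8 below. The brightest 5% of probes leaned the same way, as given above. Under quantile normalisation the 8 markers had medians of 0.07, -0.05 and -0.08, with 5, 3 and 2 of them above 0. Their summed normalised level, as log2, was 11.50 in the WT, 11.64 in the 1SA and 11.31 in the 2SA liver. Markers of Kupffer cells and macrophages, measured for 7 of 8 (Cd68 had no probe matched), had medians of -0.36 in 1SA and -0.90 in 2SA. Their summed level was 7.89 in the WT, 7.49 in the 1SA and 7.09 in the 2SA liver, and all 7 were well above background on all arrays. In 1SA 2 of the 7 lay above WT and 5 below, and in 2SA all 7 lay below, each by its brightest probe. Under quantile normalisation 1 of the 7 lay above WT in 2SA. Marco differed by -1.21 and -1.59, Clec4f by 0.45 and -1.56, Vsig4 by 0.07 and -0.90, Cd5l by -0.42 and -0.84 and Timd4 by -0.36 and -0.97. The general macrophage markers were nearer to WT in 2SA, with Adgre1 at -0.49 and -0.16 and Csf1r at -0.05 and -0.006. Their dimmer probes lay above WT in 2SA, at 0.14 for Adgre1 and at 0.09 and 0.19 for Csf1r. The part of these cells in the Apoe signal was not tested.

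Next came other genes of the lipoprotein pathway, in 7 lists of 71 genes, of which 67 were measured on all 3 arrays. In 1SA, 0 of these 67 were higher than in WT and 6 were lower, and in 2SA 3 were higher and 2 lower, against the shares of all probes given above. Their medians were -0.03 and -0.008. Genes are named where they passed 1.5-fold against WT, besides Mttp, Hnf4a and Creb3l3 and a few examples chosen after their values were seen.

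Of 13 other genes with apolipoprotein in their names, which include the receptor gene Apobr, 12 were measured. Their medians were 0.06 in 1SA and 0.08 in 2SA. Apod, which encodes a lipocalin found on HDL, was lower in 1SA (-0.88) and differed by 0.30 in 2SA. Its probe was dim and read 94.1 in the WT liver, 48.4 in the 1SA liver and 128 in the 2SA liver. With normexp background correction the 1SA difference shrank to -0.44. The liver-secreted Apoc4, Apof, Apom and Apon lay between -0.02 and 0.17 in 1SA. The 4 serum amyloid A genes, whose acute-phase proteins ride on HDL, had medians of 0.24 and 0.06. Saa3 differed by -0.13 in 1SA and was higher in 2SA (0.588), at the edge of the threshold of 0.585. It fell short of it with normexp (0.580) and without correction of trends (0.583).

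All 10 genes for the assembly and secretion of particles stayed within 1.5-fold in both mutants, with medians of -0.06 and -0.07. Mttp, the transfer protein that loads lipid onto apolipoprotein B, read 3191 in the WT liver, 2808 in the 1SA liver and 3340 in the 2SA liver. Its differences from WT were -0.11 and -0.07. Apobec1, the enzyme that edits Apob mRNA to the short form, differed by -0.09 and 0.36.

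Of 9 genes for receptors and uptake 8 were measured, with medians of -0.02 and -0.001. Vldlr, a receptor of triglyceride-rich particles, was lower in both mutants (-0.76 and -0.87), at intensities of 146, 81.9 and 87.8. With normexp background correction the 1SA difference was -0.46, short of 1.5-fold.

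Of 10 genes for remodelling in plasma and lipid transfer 9 were measured, with medians of -0.18 and 0.07. Angptl4, an inhibitor of lipoprotein lipase, read 14631 in the WT liver, 7634 in the 1SA liver and 27594 in the 2SA liver. It was lower in 1SA (-0.86) and higher in 2SA (0.78). Lcat, Lipc and Abca1 stayed within 0.16 of WT in both.

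The 17 transcription factors of apolipoprotein genes were all measured, with medians of -0.08 and -0.07. Hnf4a, the nuclear receptor that binds many of these promoters, read 40185 in the WT liver, 46055 in the 1SA liver and 40667 in the 2SA liver and differed by 0.27 and -0.12. Creb3l3, an activator of Apoa4 and Apoa5, had 41362, 30999 and 34713 and differed by -0.34 and -0.39. Foxa2 was lower in 2SA by both of its probes (-0.80 and -0.69). For Srebf2 the probes disagreed. The brighter one was lower in 1SA (-0.88), and the dimmer one was higher in both mutants (0.61 and 0.63).

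Of 8 genes of the fasting response 7 were measured, with medians of -0.35 and -0.20. Cyp4a14 and Cyp4a10, fatty acid hydroxylases under PPAR alpha, were lower in 1SA (-3.37 and -1.50) and differed by -0.26 and -0.20 in 2SA. These related genes may share signal between probes. A dimmer Cyp4a10 probe gave -0.52 and 0.04. Pdk4, a dim probe with 109 in WT, 96.7 in 1SA and 211 in 2SA, was higher in 2SA (0.82) and differed by -0.09 in 1SA. Ppara itself, among the transcription factors, differed by -0.17 and -0.37.

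**Figure D4:**
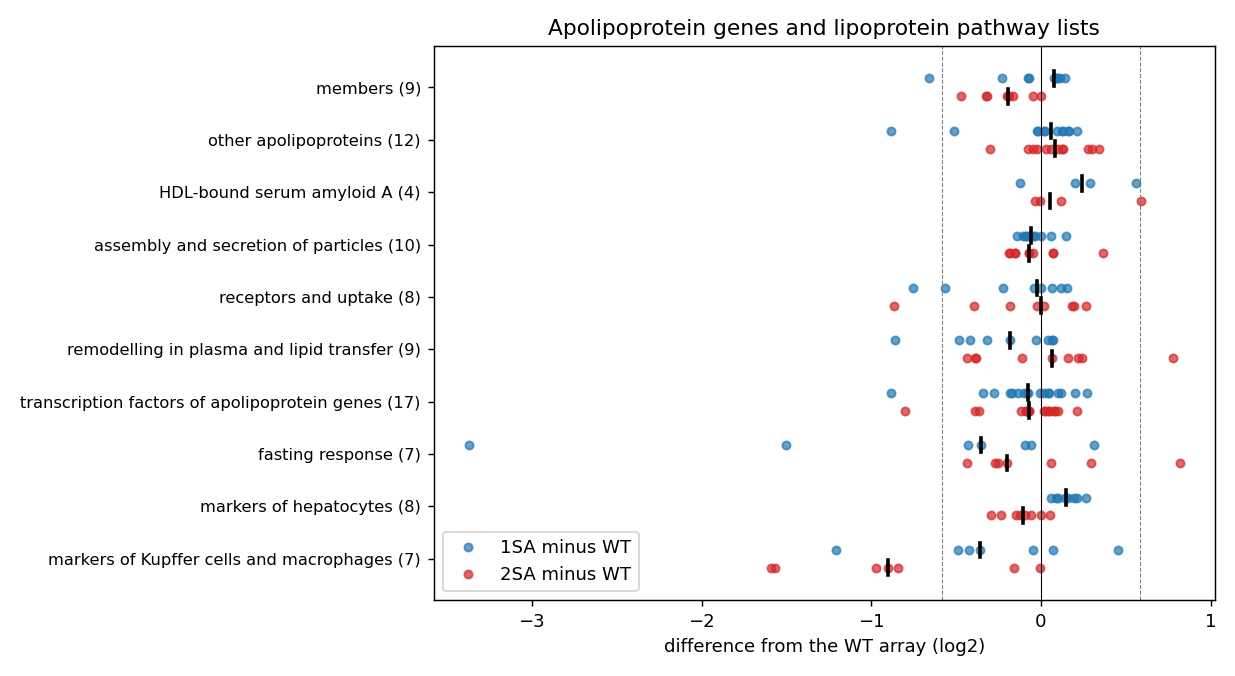
Difference from the WT array (x axis, log2) for each measured gene of the apolipoprotein set, of 7 lipoprotein pathway lists and of markers of hepatocytes and Kupffer cells (y axis, genes measured in parentheses); 1 point per gene, black bars are medians and dashed lines mark 1.5-fold. The 9 members stay within 1.5-fold apart from Apoa5 in 1SA at -0.66, while Cyp4a14 reaches -3.37 in 1SA.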

How the data were processed

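RNA of 3 mouse livers, labelled with Cy3, was measured on 1-colour Agilent arrays lying on 1 slide. The authors processed the scans with Feature Extraction 10.10.1.1, and the probes were placed on mm9, per the file headers. The deposited intensity was background-subtracted and corrected for trends within the array, with no scaling that makes arrays alike. In the series matrix the authors gave the same intensity times a constant for each array, so the 75th percentile brought both to equal values.

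Of 59305 non-control spots per array, 148 to 182 were flagged by the scanner software (non-uniform, or outliers within their population) and dropped. The log2 intensities of a probe's spots were averaged and the log2 75th percentile of the array was then subtracted. A probe counted as measured where at least 50% of its spots were well above background. RefSeq accessions without version were matched to a gene table of GRCm38.p6, which named 26762 of 55681 probes. No p-value was computed.

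The members, lists and motifs were chosen with earlier results of these data known. Genes beyond the members were named where they passed 1.5-fold in either mutant against WT, up to 5 per list, besides Mttp, Hnf4a and Creb3l3; others are named as examples chosen after their values were seen. Some genes of the pathway lists are not reported here and are in none of their counts. Steps were tested on simulated data. Alternatives tried were scaling by quantiles, scaling by the array median, normexp with an offset of 50 on spot medians, the series matrix, the mean of all probes, no filter and a stricter filter on dim probes, a 2-fold threshold, bright probes as background and, chosen after seeing the data, spot medians without correction of trends. Precision is limited by the number of arrays. Python 3.11.15, pandas 2.3.3, numpy 2.4.6, matplotlib 3.10.9, R 4.3.3 and limma 3.58.1 were used.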

Additional observations from a re-analysis of the deposited data

Results flagged for a closer look

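Of 98 measured genes of the pathway and marker lists, 10 lay on opposite sides of WT in the mutants, each time by more than 0.21, which is 2 SDs of a difference from repeated spots. The share of all probes that did so was not computed, so the count cannot show whether these lists differ from all probes. For Angptl4 the difference was -0.86 in 1SA and 0.78 in 2SA, which puts 2SA 1.64 above 1SA. For Apod it was -0.88 in 1SA and 0.30 in 2SA, which puts 2SA 1.19 above 1SA. With normexp background correction the Apod difference between the mutants was 0.62. Its difference of 2SA from WT was then 0.18, under the 0.21 used here. Other genes with the lower value in 1SA and the higher in 2SA had 2SA minus 1SA values of 0.79 (Apobr), 0.54 (Lpl), 0.51 (Sox9) and 0.49 (Nr0b2). In 2SA against WT, Lpl (0.219), Sox9 (0.220) and Nr0b2 (0.211) lay close to the limit, and the dimmer Lpl probe was at 0.11. Genes with the reverse order had values of -2.02 (Clec4f), -0.87 (Lrat), -0.58 (Pck1) and -0.50 (Cyp2e1). None of these differences was tested, because each construct was in 1 liver sample and the effects of sample and construct cannot be told apart. None of the 9 apolipoprotein genes met this criterion.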

How the results depend on the processing

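No paired analysis was possible because there is a single array for each construct and nothing was tested. For the same reason neither the slide as a block nor leaving out a replicate could be run. Of 216 differences of single apolipoprotein genes computed under the alternatives, 103 equalled the reported value within 0.0001. Among them were all from the series matrix and from both filters on dim probes, which could not move these genes by construction. Nor could the mean of all probes move a gene with a single probe. Of the other 113, 101 moved by less than 0.10, the repeated-spot SD of a difference. The 12 larger moves arose under quantile normalisation. The only difference past 1.5-fold, that of Apoa5 in 1SA against WT, kept its sign. Smaller ones changed sign under quantile normalisation, such as those of Apoa2 and Apoh in 2SA and of Apoc1 in 1SA. Quantile normalisation moved the median of the 9 genes to -0.055 in 1SA against WT, -0.082 in 2SA against WT and -0.024 in 2SA against 1SA. With a 2-fold threshold the count of genes lower in 1SA than in WT was 0. The 6 counts over all probes are given first for probes above and below WT in 1SA, next for those above and below WT in 2SA, and last for those above and below 1SA in 2SA. They were 923, 1114, 938, 982, 1555 and 1433 in the report. Normexp gave 332, 326, 386, 267, 693 and 602. Keeping dim probes gave 4554, 4947, 4120, 5230, 4849 and 5680. The stricter filter gave 276, 294, 274, 211, 515 and 472. The 2-fold threshold gave 201, 267, 253, 189, 526 and 339. The brightest 5% of probes gave 13, 5, 6, 15, 6 and 35. Of the probes past 1.5-fold in 2SA against WT, higher ones made up 48.9% in the report, 59.1% with normexp and 37.6% without correction of trends. No filter moved the median of all probes to -0.11, -0.15 and -0.19 in the 3 comparisons. Fewer probes enter with the stricter filter or the bright probes, and fewer can pass 2-fold. The cause under quantile normalisation and normexp was not tested.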

Other observations

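Markers of other cell types gave the following medians in 1SA and 2SA against WT. Red blood cell markers (3 of 3 measured) were at 0.90 and 0.45. Bile duct markers (4 of 4) were at -0.78 and 0.01, at intensities from 16.5 to 140, and with normexp background correction the first of these was -0.17. Markers of sinusoidal endothelium (4 of 4) were at 0.005 and 0.07, with members on both sides of WT in 2SA. There Clec4g was lower (-0.59) and Stab2 was at -0.21, while Lyve1 was at 0.37 and Pecam1 at 0.35. Markers of stellate cells and fibroblasts (3 of 4) were at -0.18 and -0.60, and at -0.006 and -0.45 with normexp. Of the 4 intestinal markers, listed because the intestine also makes Apoa4 and Apob, Fabp2 and Lgals4 were measured on all 3 arrays. Fabp2 differed by -0.40 and -0.52 and Lgals4 by -1.23 and 0.01. The Fabp2 probe read 13498 in the WT liver, and the source of its signal was not tested. The Sis probe was not well above background on any array, and the Vil1 probe was so on WT and 2SA only.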
